A study of Drosophila melanogaster with 18 samples.

Results

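Exon-level counts can part within 1 gene, and the 10 genes described here did so between the sexes: AGO2, Ald1, alpha-Cat, Amph, Ank2, btl, CG1317, CG1407, CG15547 and CG17110 each had at least 1 exon record called higher in male TRAP and at least 1 called higher in female TRAP (FDR under 0.2). They are 10 of 67 genes with records called in both directions among 8763 genes with a tested record, and they hold 127 of the 87508 exon records (116 of the 127 have distinct coordinates). An exon record is 1 exon of an annotated transcript, named by the transcript and the exon number, and an interval can be listed more than once. The genes were chosen by their male against female TRAP values, so those values are given as a description without a test, and they support nothing below. The tests rest on male against female total mRNA and on TRAP against total mRNA within each sex. The first used libraries that did not enter the choice but came from the same lysates, so it was not independent of the choice. The second shares its TRAP libraries with the choice.

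The proteins of these genes do different work. Ank2 is an ankyrin, an adaptor that ties membrane proteins to the spectrin skeleton, and its long isoforms stabilise axons and synapses. alpha-Cat links the cadherin and catenin complex of adherens junctions to actin, Amph is a BAR domain protein that shapes membranes, and btl (breathless) is the FGF receptor that guides tracheal branching. Ald1 is the glycolytic enzyme fructose-bisphosphate aldolase, AGO2 is the Argonaute of the siRNA pathway, CG1317 is related to an E3 ubiquitin ligase of the endoplasmic reticulum, and CG1407 belongs to the DHHC family of protein palmitoyltransferases. One gene can give transcripts that differ in their first exon, internal exons or last exon, and the testis in particular is known for its many transcripts with other 3' ends.

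RNA was measured in whole pupae at 48 hr after puparium formation (APF), about 1000 animals pooled per sample. The fru P1-Gal4 driver expressed a GFP-tagged ribosomal protein, RpL10A, and ribosome-bound mRNA was pulled down by translating ribosome affinity purification (TRAP); total mRNA came from the same lysates. Males gave 5 libraries of TRAP and 5 of total mRNA (replicates 1, 2, 3, 5 and 6), females 4 of each (replicates 2, 3, 4 and 5), and library values below follow this order of replicates. All groups carried fru P1-Gal4 over a wild-type chromosome, UAS-Gal4 and UAS-GFP::RpL10A in a w background, so the tagged ribosomes mark the cells in which this driver is active and no group is without the transgenes. In these bulk samples fewer cells of a type and less RNA per cell cannot be told apart.

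The total count per library was 24901633 to 67491630, and values are given as RPM, the count scaled to the library's total over all exon records as CPM are, without the TMM factors. The summed level of 10 neuronal marker genes was 4694 to 7382 RPM in male TRAP against 1123 to 1599 in male total mRNA, and 5086 to 7831 against 1605 to 2600 in females. The 7 fat body markers also stood above total mRNA in TRAP (4054 to 13427 RPM in males and 12600 to 23947 in females, against 1162 to 1531 and 1835 to 2106 in total mRNA). The 20 male germline markers summed to 15312 to 18247 RPM in male total mRNA, 6049 to 17501 in male TRAP and, among females, 330 to 532 in TRAP and 113 to 409 in total mRNA, with 1 of the 20 at or under 3 counts in every library of each female group. In male TRAP the germline sum was 17501, 7330, 7172, 11074 and 6049 RPM in replicates 1, 2, 3, 5 and 6, so replicate 1 held the most and replicate 6 the least; replicate 1 also had the lowest neuronal (4694 RPM) and fat body (4054 RPM) sums. One marker, bol, made up most of the female germline sum, with a mean of 355 RPM in TRAP and 144 in total mRNA, and 14 of 14 markers tested were higher in male total mRNA. Of the male-high lead records, those of Ald1, CG1317, CG1407, CG15547, CG17110, Ank2 and btl were highest among male TRAP libraries in replicate 1, those of AGO2 and alpha-Cat in replicate 6, and that of Amph in replicates 5 and 6. Their part in the sex differences below was not tested.

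Fold changes come from TMM-scaled counts (TMM sets the bulk of the records equal between libraries), which in male against female total mRNA raised the log2 value of the tested member records by a median of 0.41 over the ratio of RPM; the rise was 0.17 in male TRAP against male total mRNA and 0.003 in the female comparison. The direction of a total mRNA value nearer to 0 than this can turn with the scaling, whereas a difference between 2 records of the same gene does not. For that reason each gene is given both as separate records and as the log2 ratio of its 2 lead records within a library, with 0.5 RPM added to each. The lead records are the record with the smallest adjusted p in each direction in the TRAP comparison, called male-high and female-high after their TRAP values.

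Of the 127 records, 75 passed the count filter (above 2 CPM in 60% or more of the libraries entering a comparison) in at least 1 comparison and 52 in none. In a comparison of the sexes this meant 6 of the 9 libraries, so a record above 2 CPM in the 5 male libraries alone was not tested. Of the 60 member records tested there, 18 were higher and 18 lower in males, against 38.8% higher and 36.6% lower of all 23971 tested records. The share called in each direction was thus below that of all records with TMM factors. With RLE size factors the split was 18 higher and 29 lower, but the share of all records under that scaling was not taken, so this split has no comparison. Of the 9 male-high lead records tested in total mRNA, 6 were higher in males and 3 (AGO2, alpha-Cat and btl) were not called, with a median of 1.12 on the log2 scale. All 8 tested female-high lead records were lower in males, with a median of −0.51. In the TRAP comparison that chose the genes, 18 of 60 tested records were higher and 18 lower in males (23.3% and 18% of all records).

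Exon usage compares each record with the rest of its gene, and in male against female total mRNA it differed in 8 of the 10 genes (Simes adjusted p under 0.05), against 25.1% of 5550 genes tested. The adjusted p ran from 3.52e-34 for Ald1 to 0.00219 for btl. The exceptions were AGO2 (adjusted p = 0.397) and alpha-Cat (adjusted p = 0.573). For 5 of the 7 genes in which both lead records were tested in total mRNA, the 2 records were called in opposite directions. The share of all genes with records called both ways in total mRNA was not taken. The lead pairs were also chosen for opposite values in TRAP libraries of the same lysates, so the count is a description only. The male-high lead record lay upstream of the female-high one in 7 genes and downstream in 3 (Ank2, CG15547 and CG17110). Last exons made up 6 of the 10 female-high and 4 of the 10 male-high lead records.

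**Figure D1:**
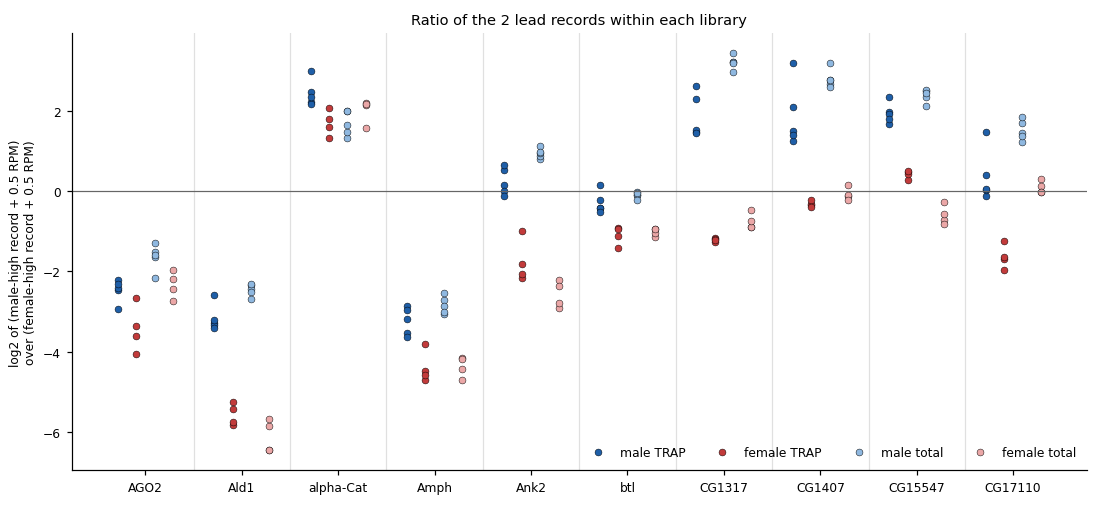
Log2 ratio of the male-high to the female-high lead record within each library (y axis, 0.5 RPM added to both) for the 10 genes (x axis), with 1 point per library in 4 groups. In total mRNA the ratios of males lie above those of females without overlap in 8 genes and overlap in AGO2 and alpha-Cat; the TRAP ratios chose the genes.

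**Figure D2:**
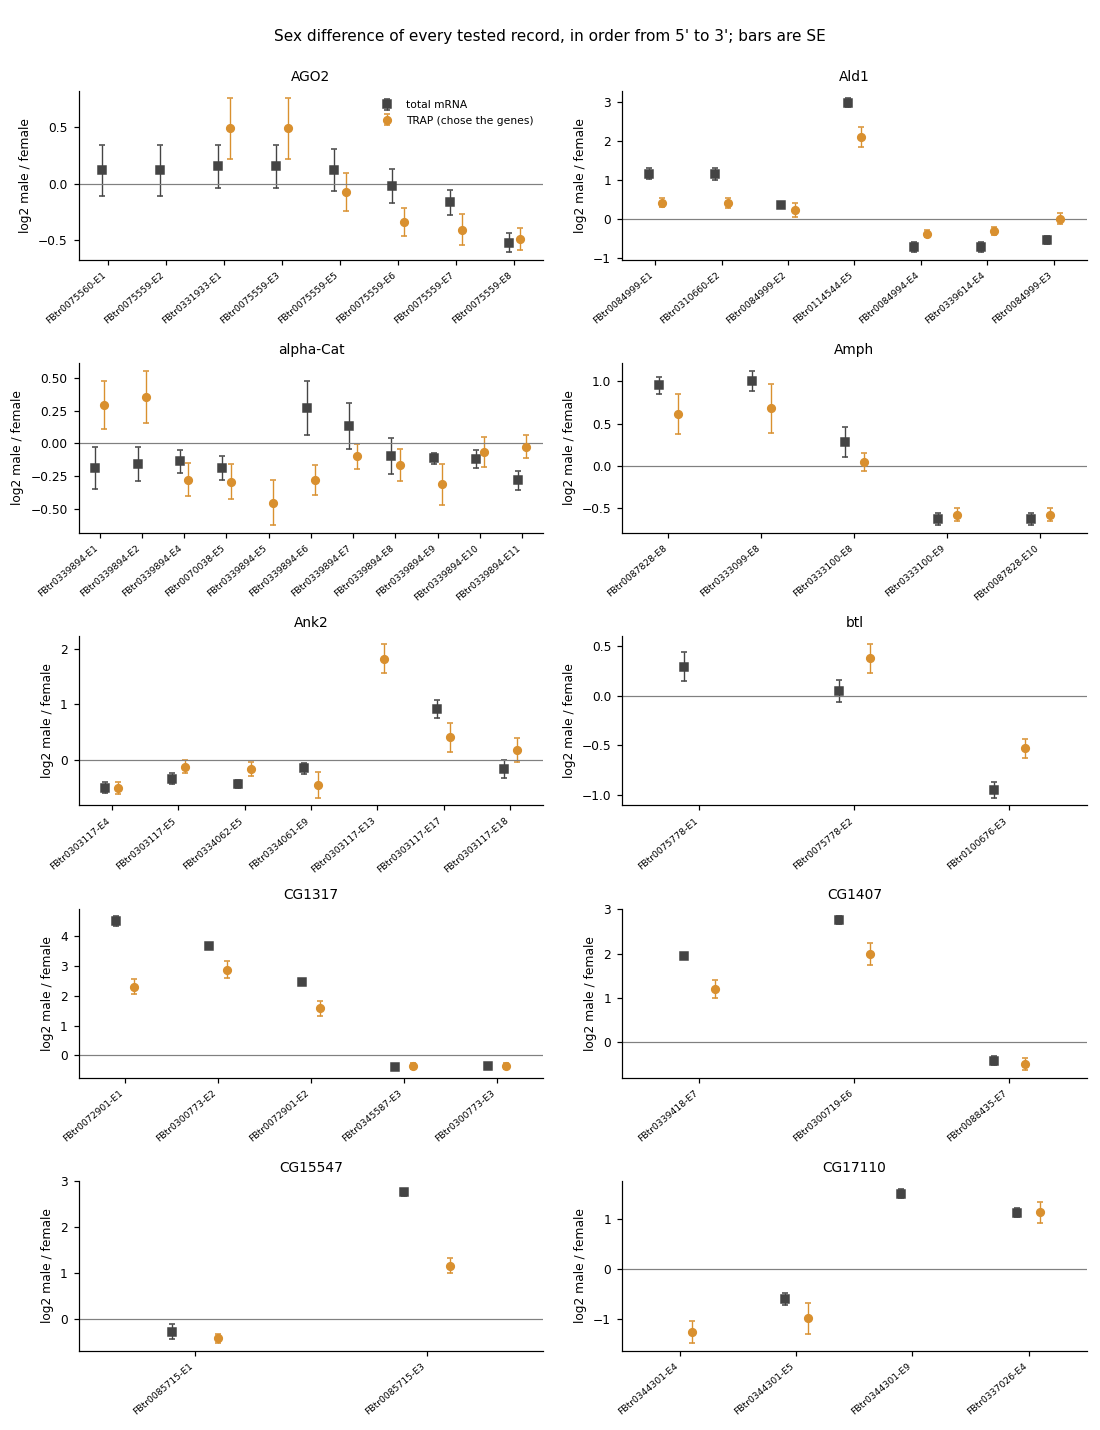
Log2 male to female difference (y axis) of every tested record with distinct coordinates, ordered from 5' to 3' (x axis), in total mRNA (squares) and in TRAP (circles, the values that chose the genes); bars are SE. In CG1317 the 3' UTR last exons of CG1317-RC and CG1317-RD lie below 0 in both series, and the other records lie above 0. The CG1407 records tested here are all last exons, and only the most downstream one lies below 0.

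In males Ank2 carried more reads of a late coding exon and fewer of its 5' exons than in females. The gene (FBgn0261788, 3L 7655389–7718395, minus strand, 22 transcripts in the reference) has 33 records, of which 8 were tested in at least 1 comparison. Its male-high lead is FBtr0303117-E13 (3L 7696938–7699373), a coding exon of 2436 bases in 18 of the 22 transcripts. Its RPM was 5.29, 4.45, 4.75, 4.53 and 3.18 in male TRAP, 2.39, 1.14, 0.998 and 1.17 in female TRAP, 8.58, 9.07, 11.4, 9.86 and 8.84 in male total mRNA and 0.763, 0.847, 1.44 and 1.36 in female total mRNA. Males exceeded females without overlap in both kinds of RNA, and male total mRNA was the highest group. The TRAP difference was 1.82 (SE 0.27). The record was too low in female total mRNA to be tested there, and without the filter it gave 3.36 (adjusted p = 3.07e-100). In males it was lower in TRAP than in total mRNA, at −0.93 (SE 0.13, adjusted p = 6.3e-09).

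The female-high lead of Ank2, FBtr0303117-E4 (3L 7709519–7710283), is a coding exon near the 5' end that all 22 transcripts share. It stood at 3.52, 3.93, 4.72, 2.72 and 3.49 RPM in male TRAP, 5.25, 5.27, 6.25 and 6.49 in female TRAP, 4.74, 3.91, 5.9951, 4.82 and 4.24 in male total mRNA and 8.9954, 8.88, 8.50 and 9.09 in female total mRNA. Each female group lay above the male group of the same RNA. Total mRNA gave −0.49 (SE 0.10, adjusted p = 0.000236) and TRAP −0.50 (SE 0.11). The pair ratio was 0.79 to 1.12 in male and −2.91 to −2.21 in female total mRNA. In RPM of total mRNA, the coding exon E13 thus exceeded E4 in every male library and was below it in every female one. RPM is not scaled to length, and E13 at 2436 bases is longer than E4 at 765.

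The other Ank2 records parted by position. Next to E4, the coding exon FBtr0303117-E5 was lower in male total mRNA at −0.33 (SE 0.10, adjusted p = 0.00585), and so was FBtr0334062-E5, the last exon of Ank2-RE and Ank2-RX that contains it, at −0.44 (SE 0.07, adjusted p = 1.23e-05). Further downstream FBtr0303117-E17 (3L 7656375–7661506), in 14 transcripts, was higher in males at 0.92 (SE 0.16, adjusted p = 1.12e-09); 60.4% of its bases are shared on the same strand with CG44195, whose overlapping record differed by 1.14 (SE 0.23, adjusted p = 4.02e-06). The last exon of 17 transcripts, FBtr0303117-E18, had −0.17 (SE 0.16, adjusted p = 0.295). That last exon was the record most enriched in TRAP, with 2.41 (SE 0.14, adjusted p = 1.16e-41) in males and 1.65 (SE 0.24, adjusted p = 1.94e-13) in females, and FBtr0334061-E9, the last exon of Ank2-RN and Ank2-RW, followed with 0.96 and 0.85 (adjusted p = 3.09e-09 and 5.51e-05). The 27690-base exon of Ank2-RAA and Ank2-RU (FBtr0344224-E16) stayed between 0.453 and 2.04 RPM in the 18 libraries and was not tested.

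The records of alpha-Cat parted little between the sexes, and most of them were higher in TRAP than in total mRNA. The gene (FBgn0010215, 3L 23318646–23338100, minus strand) has 2 transcripts and 20 records, 18 of them tested, and 7 of its intervals are listed under both transcripts with the same counts. Its male-high lead is FBtr0339894-E2 (3L 23334364–23334740), the coding second exon of both. The RPM was 12.7, 14.1, 11.4, 13.7 and 17.9 in male TRAP and 13.5, 8.23, 15.6 and 12.3 in female TRAP, against 6.73, 5.73, 5.61, 7.12 and 8.43 in male and 9.64, 9.26, 11.9 and 9.55 in female total mRNA. The TRAP groups overlapped at this record, and in total mRNA all females exceeded all males. Its TRAP difference of 0.35 (SE 0.20) was the one nearest to the threshold among the members, and total mRNA gave −0.16 (SE 0.13, adjusted p = 0.306). Without any 1 of the female total mRNA libraries, or without male total mRNA replicate 1 or 6, that second exon was lower in males (−0.57 to −0.22, adjusted p = 0.000234 to 0.175). Leaving out a female library moved all tested member records by a median of −0.36 to −0.30. The female-high lead, FBtr0070038-E6 (3L 23327494–23327645), is an exon of 152 bases in both transcripts, coding or 3' UTR by transcript. It stood at 1.15, 2.64, 2.13, 2.08 and 3.09 RPM in male TRAP, 4.11, 3.01, 3.32 and 3.14 in female TRAP, 1.32, 2.0023, 1.69, 1.93 and 1.75 in male total mRNA and 1.77, 2.76, 2.22 and 1.71 in female total mRNA, so total mRNA of both sexes was near the same level. It was under the filter in total mRNA, where the fit without a filter gave −0.05 (adjusted p = 0.942).

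What the alpha-Cat records shared was enrichment in TRAP. All 16 records tested in males were higher in TRAP, by 0.31 to 1.22 on the log2 scale. In females 11 of 18 were higher, by 0.25 to 0.67, and none was lower. With each interval counted once, this was 10 of 10 in males and 7 of 11 in females. For comparison, 39.2% of 30040 records were higher and 38.3% lower in male TRAP, and 35.6% higher and 33.5% lower of 25115 in female TRAP. The second exon itself had 1.22 (SE 0.17, adjusted p = 5.46e-11) in males and 0.30 (SE 0.20, adjusted p = 0.17) in females, the latter lost without female TRAP replicate 2, 4 or 5 or female total mRNA replicate 2, 3 or 5 (0.18 to 0.31, adjusted p = 0.226 to 0.435). Between the sexes in total mRNA only the last exon was called, under both of its names, at −0.28 (SE 0.07, adjusted p = 0.00476). The pair ratio overlapped between the sexes in total mRNA (1.31 to 1.99 in males and 1.58 to 2.19 in females).

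In Amph males had more of an internal exon that only some transcripts keep, and females more of the last exon. The gene (FBgn0027356, 2R 12593604–12612068, plus strand) has 3 transcripts, which differ in exon 8. The male-high lead FBtr0087828-E8 (2R 12609169–12609876) is that exon in Amph-RA, a coding stretch of 708 bases; Amph-RB uses 408 bases inside it, and Amph-RC skips it. It stood at 4.49, 4.33, 4.16, 6.10 and 6.10 RPM in male TRAP, 3.22, 2.87, 5.87 and 3.10 in female TRAP, 5.01, 6.85, 7.19, 6.33 and 6.09 in male total mRNA and 3.94, 3.70, 5.03 and 4.51 in female total mRNA. In TRAP 1 female library, replicate 4, lay among the males, and in total mRNA the highest female library lay just above the lowest male one. The difference was 0.61 (SE 0.24) in TRAP and 0.95 (SE 0.10, adjusted p = 1.19e-12) in total mRNA.

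The female-high lead of Amph is its last exon in Amph-RA and Amph-RB, FBtr0087828-E10 (2R 12611009–12612068), which holds the end of the coding region and the 3' UTR. Its RPM was 35.9, 55.9, 57.4, 50.8 and 59.950 in male TRAP, 82.1, 88.2, 89.1 and 85.9 in female TRAP, 45.1, 47.9, 44.3, 49.4 and 52.6 in male and 95.5, 109.6, 98.2 and 90.7 in female total mRNA. All female libraries lay above all male ones in both, with −0.57 (SE 0.08) in TRAP and −0.63 (SE 0.07, adjusted p = 1.53e-10) in total mRNA. Relative to the rest of the gene, exon 8 was raised in males by 1.44 (adjusted p = 9.8e-13) on the log2 scale, the following exon shared by all 3 transcripts (FBtr0333100-E8) by 0.76 (adjusted p = 7.59e-06), and the last exon had −0.14 (adjusted p = 0.707). Nested records entered this test, and the last exon lies within FBtr0333100-E9 of Amph-RC. The last exon was thus compared in part with its own reads, so its value does not show whether it shifted within the gene. The pair ratio was −3.05 to −2.54 in male and −4.71 to −4.16 in female total mRNA. The first 7 exons did not pass the filter and stayed at or under 2.18 RPM on average in each group, so the gene is read here at its 3' end.

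For btl the last exon was the clear difference, with more reads in females. The gene (FBgn0285896, 3L 14075772–14083229, plus strand) has 2 transcripts and 5 records. The male-high lead FBtr0075778-E2 (3L 14075876–14076048) is a 5' UTR exon of btl-RA. Since reads were counted for every overlapping record on a strand, its counts cannot be assigned to btl alone. It was at 2.75, 2.24, 2.52, 2.72 and 2.44 RPM in male TRAP, 1.88, 2.67, 1.9966 and 2.22 in female TRAP, 2.63, 2.82, 2.69, 3.01 and 2.43 in male total mRNA and 2.89, 3.23, 3.66 and 4.20 in female total mRNA, with overlapping groups in both. The TRAP difference was 0.38 (SE 0.15). In total mRNA it had 0.05 (SE 0.11, adjusted p = 0.805), and without any 1 of the female total mRNA libraries it was lower in males (−0.34 to −0.24, adjusted p = 0.0103 to 0.113). Each of these omissions let more records pass the filter and moved the tested member records as a whole by a median of −0.36 to −0.30.

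The last exon of both btl transcripts, FBtr0100676-E3 (3L 14082274–14083229), is the female-high lead and overlaps no other gene on its strand. It had 2.44, 3.18, 3.54, 3.28 and 3.73 RPM in male TRAP, 5.83, 5.47, 4.93 and 4.74 in female TRAP, 2.82, 2.88, 2.88, 3.10 and 2.90 in male and 6.99, 6.65, 8.04 and 8.46 in female total mRNA. The sexes did not overlap, with −0.53 (SE 0.09) in TRAP and −0.95 (SE 0.08, adjusted p = 2.04e-15) in total mRNA. The pair ratio was −0.22 to −0.03 in male and −1.14 to −0.93 in female total mRNA. At this exon TRAP was above total mRNA in males at 0.31 (SE 0.08, adjusted p = 0.0368) and below it in females at −0.52 (SE 0.09, adjusted p = 0.00109); whether the sexes differ in this was not tested, since the difference holds the TRAP contrast that chose the gene.

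Ald1 parted between alternative last exons. The gene (FBgn0000064, 3R 26254069–26261591, minus strand) has 10 transcripts that end in alternative last exons, and its 2 lead records are 2 of them. FBtr0085001-E4 (3R 26255966–26256307), male-high, ends Ald1-RE, RH, RI, RJ and RL. FBtr0084994-E4 (3R 26254069–26255431), female-high, lies downstream and ends Ald1-RB. The male-high last exon had 64.028, 36.5, 41.989, 46.9 and 37.9 RPM in male TRAP, 10.4, 15.2, 10.5 and 12.8 in female TRAP, 81.998, 75.1, 72.2, 74.2 and 75.3 in male total mRNA and 11.4, 11.1, 14.1 and 14.9 in female total mRNA. Every male library was above every female one. The female-high last exon had 389.7, 360.3, 425, 439 and 406 RPM in male TRAP, 616, 598, 592 and 571 in female TRAP, 419, 412, 364, 426 and 492 in male and 1044, 1018, 844 and 792 in female total mRNA.

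In total mRNA the upstream last exon was higher in males at 2.97 (SE 0.12, adjusted p = 1.05e-121) and the downstream one lower at −0.71 (SE 0.13, adjusted p = 7.04e-06), and in TRAP the values were 2.10 (SE 0.25) and −0.38 (SE 0.10). Both sexes had far more reads per library on the downstream exon, which at 1363 bases is also longer than the upstream one at 342. The pair ratio was −2.6995 to −2.33 in male and −6.46 to −5.69 in female total mRNA. A pair of other last exons lie inside the downstream exon, FBtr0339614-E4 of Ald1-RM and FBtr0084999-E3 of Ald1-RC, RD and RK, and they were lower in male total mRNA at −0.72 and −0.54 (adjusted p = 1.77e-05 and 4.3e-05). Upstream, the long first exon FBtr0084999-E1 of Ald1-RD and RE was higher in males at 1.16 (SE 0.15, adjusted p = 3.99e-13). It contains FBtr0310660-E2, an exon of the other 8 transcripts, so its reads cannot be assigned to Ald1-RD and RE alone. The exon that all 10 transcripts share, FBtr0084999-E2, was higher in males at 0.35 (SE 0.08, adjusted p = 0.00189). Without the TMM factors this shared exon turned, at 113 ± 9.84 RPM in males and 118 ± 11.3 in females (mean ± SD). The record with the widest gap was FBtr0114544-E4, an internal exon of Ald1-RE and Ald1-RI, which stood at 30.9 to 35.0 RPM in male and 0.14 to 0.816 in female total mRNA, and at 12.51 to 22.3 in male and 0.252 to 0.547 in female TRAP. It did not pass the filter in either comparison of the sexes and was not tested there. Summed over the gene, male total mRNA had 1381 ± 64.2 and female 1544 ± 143 CPM (mean ± SD on the TMM scale), a difference that was not called at −0.16 (SE 0.07, adjusted p = 0.20044). In TRAP against total mRNA the upstream last exon was lower in males at −0.56 (SE 0.18, adjusted p = 0.0066) and had −0.06 (SE 0.16, adjusted p = 0.763) in females.

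The records of AGO2 went uncalled at the 5' end of the gene and were lower in male total mRNA at the 3' end. The gene (FBgn0087035, 3L 15554113–15561042, plus strand) has 3 transcripts that differ at the 5' end. The male-high lead FBtr0075559-E3 (3L 15556850–15558117) is a coding exon of AGO2-RB and AGO2-RC, and FBtr0331933-E1, the first exon of AGO2-RE, adds 27 bases to it with the same counts. It had 3.45, 2.74, 4.39, 3.94 and 4.82 RPM in male TRAP, 2.41, 2.03, 5.08 and 3.04 in female TRAP, 4.25, 7.82, 6.71, 6.95 and 8.12 in male and 8.9954, 6.43, 7.16 and 9.65 in female total mRNA. The sexes overlapped in both, with 0.49 (SE 0.27) in TRAP and 0.15 (SE 0.19, adjusted p = 0.476) in total mRNA, which became a call without male total mRNA replicate 1 (0.23, adjusted p = 0.164). The female-high lead is the last exon of all 3 transcripts, FBtr0075559-E8 (3L 15560641–15561042), at 17.7, 24.5, 26.7, 23.1 and 25.9 RPM in male TRAP, 35.1, 41.9, 35.029 and 36.019 in female TRAP, 20.7, 20.023, 20.2, 22.8 and 25.7 in male and 43.049, 45.7, 40.7 and 38.9 in female total mRNA. Here the sexes were apart in both, by −0.49 (SE 0.09) in TRAP and −0.53 (SE 0.08, adjusted p = 4.07e-07) in total mRNA. From the fifth to the eighth exon of AGO2-RB the total mRNA values ran 0.12, −0.02, −0.17 and −0.53, of which the last 2 were lower in males. The pair ratio was −2.16 to −1.30 in male and −2.74 to −1.95 in female total mRNA, with an overlap.

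The 5' records of AGO2 were lower in TRAP than in total mRNA in both sexes. In females the first 4 tested records fell by 1.86, 1.86, 1.36 and 1.36 on the log2 scale, and in males by 0.78, 0.80, 0.63 and 0.63, all called (adjusted p at most 8.24e-06 in females and 0.00239 in males). These records are nested pairs, FBtr0075559-E2 inside FBtr0075560-E1 and FBtr0075559-E3 inside FBtr0331933-E1. The counts within a pair are equal or nearly so, and each pair is 1 measurement. The last exon had −0.18 (SE 0.09, adjusted p = 0.209) in females, which passed with the lysate as a block (adjusted p = 0.18) or without female TRAP replicate 3 or female total mRNA replicate 5 (−0.24 and −0.22), and was higher in TRAP in males at 0.27 (SE 0.11, adjusted p = 0.085). Without the count filter, or without male total mRNA replicate 2 or 3, that male value was not called (0.06, 0.20 and 0.20).

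CG1317 showed the widest parting of lead records in total mRNA among the 10 genes, with its coding exons far higher in males and its 3' UTR exon higher in females. The gene (FBgn0035333, 3L 2367843–2371939, minus strand) has 3 transcripts. The male-high lead FBtr0300773-E2 (3L 2368630–2370048) is the second exon of CG1317-RC and CG1317-RD, and the female-high lead FBtr0300773-E3 (3L 2368014–2368425) is the last exon of CG1317-RC, all of it 3' UTR. CG1317-RB keeps the sequence between them in 1 last exon, FBtr0072901-E2, which therefore counts the reads of both. The second exon had 106, 58.2, 59.9, 77.8 and 47.7 RPM in male TRAP, 11.3, 12.1, 10.3 and 10.5 in female TRAP, 138, 133, 136, 137 and 128 in male and 12.6, 13.3, 15.6 and 15.4 in female total mRNA. Male total mRNA was the highest group. The 3' UTR exon had 16.9, 20.5, 20.5, 15.3 and 17.2 RPM in male TRAP, 28.2, 27.7, 24.1 and 24.8 in female TRAP, 14.4, 13.9, 12.1, 14.4 and 15.7 in male and 23.9, 25.3, 26.5 and 21.5 in female total mRNA, with all female libraries above all male ones.

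In male against female total mRNA the second exon of CG1317 was higher in males at 3.65 (SE 0.08, adjusted p = 1.83e-214), the first exon (FBtr0072901-E1) at 4.51 (SE 0.16, adjusted p = 1.27e-152) and the 3' UTR exon lower at −0.36 (SE 0.09, adjusted p = 0.000981); TRAP gave 2.88 (SE 0.27), 2.30 (SE 0.25) and −0.37 (SE 0.10). The second exon exceeded the 3' UTR exon in every male library (log2 ratio 2.98 to 3.44 in total mRNA) and was below it in every female one (−0.90 to −0.46). At 1419 bases the second exon is also longer than the 3' UTR exon at 412. TRAP against total mRNA split the gene in males: the first and second exons were lower in TRAP (−1.87 and −0.76, adjusted p = 4.07e-26 and 0.00139), and the 3' UTR exons of CG1317-RC and CG1317-RD were higher (0.52 and 0.62, adjusted p = 0.000352 and 2.08e-05).

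In CG1407 males had far more reads on the upstream of its alternative last exons, while females had both at similar RPM. The gene (FBgn0033474, 2R 10028443–10032893, minus strand) has 7 transcripts and 13 records, and it too has alternative last exons. The male-high lead FBtr0300719-E6 (2R 10029715–10030258) is the 3' UTR last exon of CG1407-RC, nested in the longer last exon FBtr0339418-E7 of CG1407-RA, RE, RF and RG. The female-high lead FBtr0088435-E7 (2R 10028443–10029057) lies downstream and ends CG1407-RB and CG1407-RD. The upstream last exon had 18.7, 10.3, 9.60, 13.6 and 10.6 RPM in male TRAP, 3.91, 3.22, 3.99 and 3.56 in female TRAP, 17.7, 17.7, 16.3, 16.3 and 15.8 in male and 3.53, 2.98, 3.10 and 3.60 in female total mRNA. The downstream one had 1.60, 3.32, 3.73, 2.80 and 3.68 RPM in male TRAP, 5.14, 4.17, 4.70 and 4.86 in female TRAP, 1.49, 2.16, 2.14, 2.25 and 1.90 in male and 3.90, 3.20, 3.73 and 3.18 in female total mRNA. In male TRAP replicate 1 the upstream last exon was highest and the downstream one lowest.

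Total mRNA gave 2.76 (SE 0.08, adjusted p = 2.25e-117) for the upstream and −0.41 (SE 0.09, adjusted p = 0.00909) for the downstream last exon of CG1407, and TRAP 1.99 (SE 0.24) and −0.48 (SE 0.14). The ratio of the 2 was 2.61 to 3.19 in male and −0.23 to 0.16 in female total mRNA, where both exons stood near the same RPM. In males the downstream exon was higher in TRAP at 0.78 (SE 0.18, adjusted p = 0.000277), as it was in females at 0.44 (SE 0.09, adjusted p = 0.0128); the upstream one had −0.24 (SE 0.21, adjusted p = 0.316) in males, which with the lysate as a block was lower in TRAP (adjusted p = 0.0786), as it was without male TRAP replicate 1 (−0.46, adjusted p = 0.00201). A further 7 records in the middle of the gene (1 interval listed under both of its names, the others partly nested), tested in males only, were all lower in TRAP, by 0.39 to 0.88 on the log2 scale.

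CG15547 parted between its first and last exon. The gene (FBgn0039809, 3R 30881792–30883503, minus strand) has 1 transcript with 3 exons, so its records cannot part by a choice between annotated transcripts. Its first exon, FBtr0085715-E1 (3R 30883128–30883503), is the female-high lead and shares 40 bases (10.6% of its length) with the last exon of Sap-r on the same strand. Its last exon, FBtr0085715-E3 (3R 30881792–30882927), is the male-high lead and overlaps no other gene. The last exon had 86.5, 64.4, 62.7, 68.9 and 60.9 RPM in male TRAP, 31.9, 34.1, 36.8 and 38.9 in female TRAP, 104, 90.7, 88.987, 96.1 and 87.4 in male and 18.4, 19.3, 17.6 and 18.3 in female total mRNA. The first had 16.5, 16.015, 19.2, 17.7 and 17.1 RPM in male TRAP, 22.8, 27.8, 27.3 and 27.4 in female TRAP, 18.1, 17.4, 15.2, 17.3 and 19.6 in male and 30.6, 34.7, 26.2 and 22.2 in female total mRNA. Male and female libraries did not overlap at either exon, and they stood in opposite order, with a pair ratio of 2.13 to 2.51 in male and −0.83 to −0.27 in female total mRNA. The 89-base exon between them, FBtr0085715-E2, had 2.05 ± 0.606 RPM (mean ± SD) in male TRAP, 1.48 ± 0.194 in female TRAP, 3.83 ± 0.595 in male and 0.818 ± 0.155 in female total mRNA, so its mean, like that of the last exon, was highest in male total mRNA.

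The last exon of CG15547 was higher in male total mRNA at 2.76 (SE 0.08, adjusted p = 1.57e-127) and the first lower at −0.28 (SE 0.15, adjusted p = 0.0584); TRAP gave 1.15 (SE 0.17) and −0.43 (SE 0.10). The overlapping last exon of Sap-r, a saposin precursor, had −0.58 (SE 0.05, adjusted p = 3.82e-09) in total mRNA and −0.71 (SE 0.14) in TRAP, the same direction as the first exon of CG15547. Reads in the shared 40 bases count for both genes, and their part in the first exon was not tested. In females the last exon was higher in TRAP at 0.95 (SE 0.08, adjusted p = 1.05e-13), while in males it was lower at −0.27 (SE 0.14, adjusted p = 0.142), a call that was lost when male TRAP replicate 2, 5 or 6 or male total mRNA replicate 1 was left out (−0.22, −0.26, −0.22 and −0.22).

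CG17110 could not be read apart from its neighbour. The gene (FBgn0039050, 3R 23091724–23095441, plus strand) has 3 transcripts and 12 records, and all 12 share bases with CG6726 on the same strand, so its records cannot be assigned to 1 of the 2 genes. The female-high lead FBtr0344301-E4 (3R 23092601–23093018), a 5' UTR exon of CG17110-RC, has the coordinates of an exon of CG6726. The male-high lead FBtr0337026-E4 (3R 23094850–23095441) is the last exon of CG17110-RB, of which 56.6% is shared. The male-high record had 5.12, 2.50, 3.37, 3.30 and 3.20 RPM in male TRAP, 1.63, 1.85, 1.85 and 2.0002 in female TRAP, 5.27, 5.44, 4.73, 4.85 and 5.33 in male and 3.45, 2.6984, 3.07 and 3.39 in female total mRNA. The female-high record had 1.53, 2.74, 3.28, 2.37 and 3.09 RPM in male TRAP, 4.56, 8.62, 7.08 and 7.36 in female TRAP, 1.29, 1.69, 1.72, 1.57 and 1.10 in male and 2.69, 2.45, 3.10 and 3.46 in female total mRNA, and every female TRAP library was above all others. The pair ratio was 1.24 to 1.86 in male and −0.03 to 0.31 in female total mRNA. The male-high record was higher in male total mRNA at 1.12 (SE 0.09, adjusted p = 7.84e-18), the next 5' UTR exon of CG17110-RC (FBtr0344301-E5) lower at −0.59 (SE 0.12, adjusted p = 0.000218), and the female-high record, untested there, gave −0.75 (adjusted p = 1.49e-05) without the filter. In females the female-high record was higher in TRAP than in total mRNA at 1.25 (SE 0.21, adjusted p = 1.16e-07) and the male-high one lower at −0.77 (SE 0.09, adjusted p = 1.94e-05). In males the male-high record was lower in TRAP at −0.38 (SE 0.18, adjusted p = 0.0849), a call lost without male TRAP replicate 2 (−0.26, adjusted p = 0.254).

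**Figure D3:**
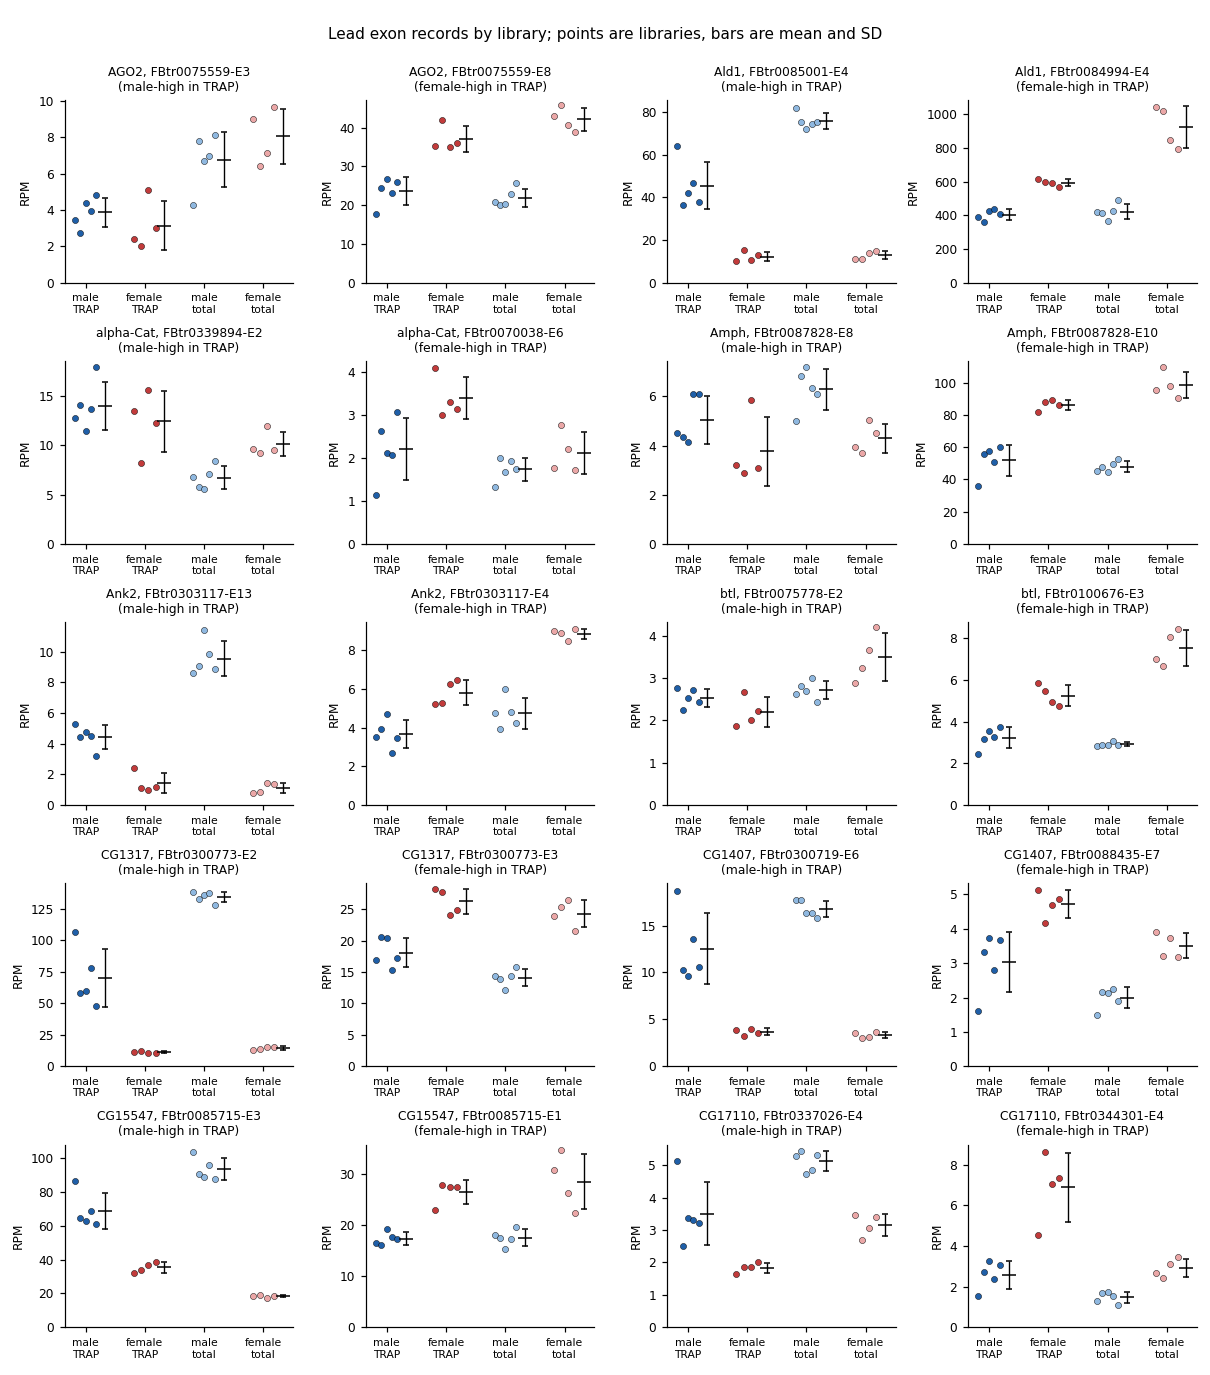
RPM (y axis, from 0) of the 20 lead records in each library of the 4 groups (x axis), with points for libraries and bars for mean and SD. The male-high records of Ald1, Amph, Ank2, CG1317, CG1407, CG15547 and CG17110 have their highest mean in male total mRNA, while those of AGO2, alpha-Cat and btl do not.

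The lead records are given next in TRAP against total mRNA within each sex, as counts only. Male-high and female-high were set by the same TRAP libraries, so a difference between the 2 kinds of record here is not independent of the choice and was not tested. Of the 10 male-high records, 6 were lower in male TRAP than in male total mRNA and 1 (alpha-Cat) higher, with a median of −0.33 on the log2 scale. Of the 8 female-high records tested there, 5 were higher and none lower, with a median of 0.27. Among all member records 30 of 70 were higher and 28 lower in male TRAP, against 39.2% and 38.3% of all records. In females 4 of 9 male-high records were lower and 2 (alpha-Cat and CG15547) higher, and of the 10 female-high records 4 were lower and 3 (alpha-Cat, CG1407 and CG17110) higher. Among all member records 20 of 61 were higher and 22 lower in female TRAP, against 35.6% and 33.5% of all records. With the lysate as a block, FBtr0303117-E4 of Ank2 was lower in male TRAP (−0.21, adjusted p = 0.175, against 0.266 without the block), and FBtr0087828-E10 of Amph, lower in female TRAP at −0.19 (SE 0.07, adjusted p = 0.18), was not called (adjusted p = 0.204). That Amph call was also lost without any 1 female library other than total mRNA replicate 5 (−0.20 to −0.12), and the same record, higher in male TRAP at 0.28 (SE 0.12, adjusted p = 0.0904), was not called without male total mRNA replicate 2 or 3 (0.25 and 0.21). The Ank2 record became a call without male TRAP replicate 3 or male total mRNA replicate 2 or 6 (−0.30, −0.29 and −0.26), and exon 8 of Amph was lower in female TRAP without female TRAP replicate 4 (−0.47, adjusted p = 0.0131, against −0.19 (SE 0.23, adjusted p = 0.53) with it).

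**Figure D4:**
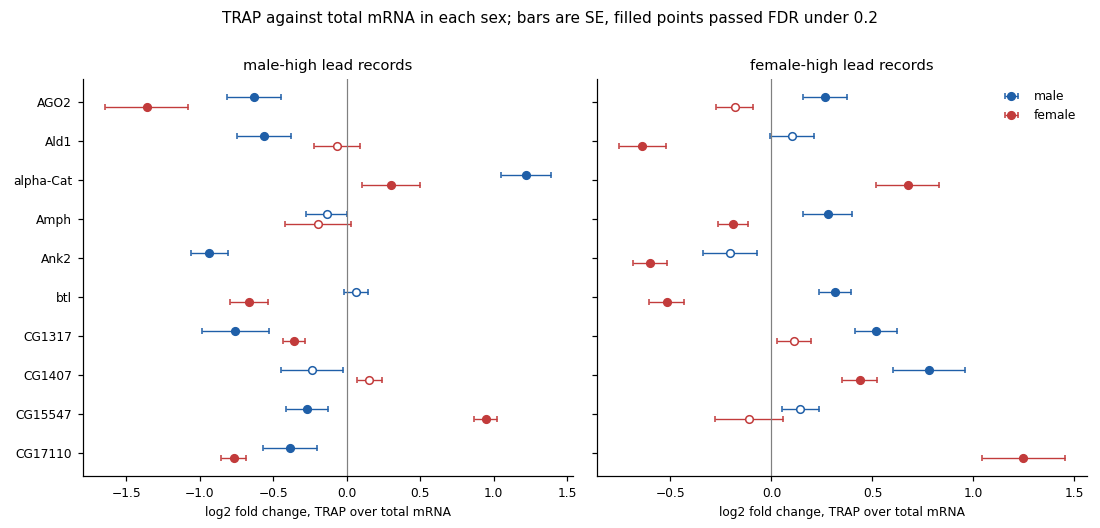
Log2 fold change of TRAP over total mRNA (x axis) of the male-high (left) and female-high (right) lead record of each gene (y axis), in males and females; bars are SE, filled points passed the test at FDR under 0.2, and records under the count filter are left out. In males the filled points lie left of 0 for 6 male-high records and right of 0 for 5 female-high ones.

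At the level of gene sums, over records that do not overlap within the gene, the sexes differed in total mRNA in 9 of the 10 genes. CG1317 was higher in males at 2.59 (SE 0.06, adjusted p = 2.83e-192), CG1407 at 2.03 (SE 0.06, adjusted p = 5.51e-175), CG15547 at 1.61 (SE 0.12, adjusted p = 1.02e-40), CG17110 at 0.63 (SE 0.09, adjusted p = 4.41e-12) and Ank2 at 0.32 (SE 0.05, adjusted p = 3.1e-06). The direction of Ank2 turned without the TMM factors, with 104 RPM in males and 109 in females on average. AGO2, alpha-Cat, Amph and btl fell by 0.20 (alpha-Cat) to 0.51 (btl) on the log2 scale. For comparison, 42.4% of 9661 genes were higher and 42.9% lower. In TRAP the sums of Ank2 and alpha-Cat were higher than in total mRNA in both sexes, with 0.97 (SE 0.11, adjusted p = 1.35e-11) and 0.80 (SE 0.14, adjusted p = 4.29e-07) in males and 0.76 (SE 0.16, adjusted p = 2.5e-06) and 0.28 (SE 0.09, adjusted p = 0.0221) in females, where 39.6% of genes were higher and 40.4% lower in males and 34.0% and 36.0% in females.

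The partners of these proteins in their pathways were looked at in lists of other genes. Among 7 spectrin and ankyrin genes, 6 were higher in male TRAP and 5 higher and 1 lower in female TRAP, led by futsch, a microtubule-binding protein of axons, at 1.39 (SE 0.13, adjusted p = 2.15e-19) in males and 0.76 (SE 0.15, adjusted p = 2.42e-06) in females; 5 of 7 were lower in male total mRNA. Of 8 adherens junction genes, 7 were higher in male TRAP and 4 higher and 3 lower in female TRAP, with CadN, the neural cadherin, at 1.95 (SE 0.16, adjusted p = 3.03e-27) and 1.30 (SE 0.20, adjusted p = 4.22e-11). All 8 FGF and tracheal genes were lower in male total mRNA, where 6 of 6 tracheal markers (median −0.59), 10 of 10 muscle markers (−0.82), 5 of 6 glial, 4 of 5 hemocyte and 8 of 10 neuronal markers tested were lower too, and their part in the lists was not tested. Among the FGF genes was bnl, the ligand of btl, at −0.69 (SE 0.15, adjusted p = 2.9e-06), which was higher in TRAP in both sexes (1.92 and 0.97).

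Of 11 glycolysis genes, 7 were lower and 3 higher in male total mRNA, with Pfk, phosphofructokinase, at 3.40 (SE 0.05, adjusted p = 1.63e-278) and Gapdh2 at −0.92 (SE 0.07, adjusted p = 1.17e-19), and 9 were lower in TRAP in each sex. In male against female TRAP, where 31.0% of genes were higher and 21.5% lower, 4 of the 11 were higher and 5 lower, and Pfk had 2.30 (SE 0.21, adjusted p = 9.1e-18). Among 9 small RNA silencing genes 5 were higher and 4 lower in male total mRNA, led by Hen1, the small RNA methyltransferase, at 3.17 (SE 0.14, adjusted p = 8.1e-127). AGO1, the Argonaute of the miRNA pathway, was higher in TRAP than in total mRNA at 1.62 (SE 0.14, adjusted p = 2.68e-23) in males and 0.76 (SE 0.20, adjusted p = 0.000116) in females. Among 6 matched genes of ER-associated degradation 5 were higher and none lower in male total mRNA, with Hrd3 at 3.12 (SE 0.08, adjusted p = 5.23e-247) and sip3, the Hrd1 ligase, at 2.46 (SE 0.05, adjusted p = 4.38e-292). All 6 were lower in male TRAP than in male total mRNA. Among 9 genes of membrane bending and endocytosis 6 were higher and 2 lower in male total mRNA, with lqf, the fly epsin, at 1.35 (SE 0.10, adjusted p = 1.55e-35). The medians of these lists in male total mRNA against female ran from −0.59 (glycolysis) to 1.17 (ER-associated degradation), against −0.04 over all genes.

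As a description, the gene outside the 10 with the highest Pearson r of log2(RPM + 0.5) over the 18 libraries was found for each lead record among 10187 genes. For the male-high records it was CG12321 for Ald1 (r = 0.998), Tom70 for CG1317 (r = 0.998), dila for CG1407 (r = 0.994), Spn42Dc for CG15547 (r = 0.994), lds for Ank2 (r = 0.989), CG11562 for CG17110 (r = 0.960), Mkp3 for alpha-Cat (r = 0.946), CG30373 for btl (r = 0.925), CG7239 for AGO2 (r = 0.894) and Naa35 for Amph (r = 0.827). For the female-high records the highest r was 0.933 to 0.986, with jagn for Amph (r = 0.983), ced-6 for AGO2 (r = 0.976), wgn, a TNF receptor, for btl (r = 0.976) and CDK2AP1 for Ald1 (r = 0.976). The 18 libraries fall into 2 sexes and 2 kinds of RNA, which all these genes share.

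The threshold that chose the genes passed close to some records. In the TRAP comparison the members just inside were FBtr0339894-E2 of alpha-Cat (0.35, adjusted p = 0.19979) and FBtr0075559-E3 of AGO2 (0.49, adjusted p = 0.18776), and those just outside were FBtr0303117-E17 of Ank2 (0.41, adjusted p = 0.20545) and FBtr0339894-E9 of alpha-Cat (−0.31, adjusted p = 0.22829). With the classic common and tagwise dispersions, 52 genes had records in both directions in place of 67, and 8 of the 10 genes did, without alpha-Cat and btl.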

How the data were processed

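Whole pupae of both sexes were profiled by TRAP and by total mRNA in 18 libraries, grouped by GEO's labels. The counts deposited by the authors are whole-number reads per exon record and are not normalised. Per the study's methods, poly(A) libraries (directional kit, 100-bp single-end reads) were aligned to dm6 with STAR and counted with FeatureCounts from uniquely mapped reads; the submitters' processing notes give STAR 2.7.2a and SAMtools 1.2. The annotation release and strand setting are not given in the sources used here. Among nested records on the same strand the inner one exceeded the outer in 0 of 28670 pairs, and on opposite strands in 990 of 1622 (61.0%), so reads were taken as counted for every overlapping record of their strand. The authors' fold changes and p-values were not used.

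As in the study's methods, edgeR 4.0.16 (R 4.3.3) ran its exact test with Benjamini-Hochberg adjustment on records above 2 CPM in 60% or more of the libraries entering a comparison, with TMM factors and a threshold of FDR under 0.2; dispersions came from estimateDisp, a choice made here since the sources used here name no dispersion function; each comparison used its own 2 groups, and all adjusted p-values here are over all records or genes tested. SE is that of the difference of the group means of log2(CPM + 0.5) over libraries, while the test uses the shared dispersions. Gene sums took 69946 records that do not overlap within their gene. Exon usage in total mRNA used edgeR's diffSpliceDGE on records with distinct coordinates, with Simes p-values per gene adjusted over genes (threshold FDR under 0.05). Records nested in another record of their gene were kept, so the rest of a gene can hold some of the same reads. RPM divides a count by the library's total count. The exact test, except in male against female TRAP, and the exon usage test were tried on simulated data. The other steps were not. Transcripts and positions come from Ensembl release 115, in which all 127 member records were found at the coordinates used. In each gene the record with the smallest adjusted p in each direction in the TRAP comparison is a lead record, and at most 3 called genes of largest change are named per list; other records, and neighbours that share bases with a member, were named after their values were seen. Members and lists were chosen with earlier results of these data known.

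Within a sex, TRAP and total mRNA with the same number come from the same lysate and are pairs by design (correlation of deviations 0.118 to 0.621 in males and −0.068 to 0.286 in females); blocked values stand beside a result where they change its call. Replicates are separate pools of pupae, with no batch in the labels. Depth is a total count of 24901633 to 67491630 per library; counts on PCR reads are not independent molecules. Alternatives were other scaling and dispersions, DESeq2 1.42.0, the quasi-likelihood F test, no filter, distinct coordinates only, a replicate block and leaving out each library. No sequences are shown.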

Additional observations from a re-analysis of the deposited data

Results flagged for a closer look

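Among the 80 groups of 4 or 5 libraries of the lead records, 5 held a library far from the others of its group, and chance gives about 1 in 20. For FBtr0075559-E8 of AGO2, female TRAP replicate 3 had 41.9 RPM and the next library 36.0. For FBtr0339894-E2 of alpha-Cat, female total mRNA replicate 4 had 11.9 RPM and the next 9.64. For FBtr0087828-E8 of Amph, female TRAP replicate 4 had 5.87 RPM and the next 3.22. For FBtr0303117-E13 of Ank2, female TRAP replicate 2 had 2.39 RPM and the next 1.17. In CG15547 the first exon FBtr0085715-E1 was lowest in female TRAP replicate 2, at 22.8 RPM against 27.3 in the next.

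The last exon of CG15547, FBtr0085715-E3, was lower in TRAP than in total mRNA in all 5 male lysates (mean log2 ratio −0.45) and higher in all 4 female lysates (0.92). The difference between the sexes was not tested.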

How the results depend on the processing

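The 20 lead records gave 54 tested values, and 854 values were computed under the alternatives. Of these, 791 kept their call or were called in neither fit, and a turn of direction among the uncalled was not counted. A further 30 lost the call, 29 gained one and 4 turned direction with a call in at least 1 of the fits. Of 39 calls, 8 were lost under at least 1 alternative. Without the count filter, 54 member records were lower in male TRAP than in male total mRNA (28 with it), and 41 were higher and 34 lower in male than in female total mRNA (18 and 18 with it). Dropping the filter also tested more records and moved the log2 values in male TRAP against male total mRNA by a median of −0.20. In male against female total mRNA RLE size factors and DESeq2 each gave 29 lower. Shares over all records were not taken under the alternatives, so these counts describe the member records alone. Leaving out a female total mRNA library let 73 or 74 records pass the filter in place of 60, moved the log2 values by −0.36 to −0.30, and gave 28 higher and 33 to 35 lower; over all left-out libraries the range was 16 to 28 higher and 17 to 35 lower. The same omissions turned FBtr0075778-E2 of btl in total mRNA from 0.05 to −0.34, −0.29, −0.26 and −0.24 without female replicate 2, 3, 4 and 5 (−0.34 to 0.10 over all left-out libraries). In TRAP against total mRNA, leaving out a library gave 23 to 30 higher and 25 to 30 lower in males and 15 to 22 higher and 16 to 21 lower in females. Exon usage differed in 8 to 9 genes; AGO2 was the added one without male total mRNA replicate 1 (adjusted p = 0.0408).

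With the replicate number as a block, 30 member records were higher and 30 lower in male TRAP, and 20 and 21 in female TRAP; beside the calls named in the report it changed no other call of a lead record there. Males and females share only a number (correlations −0.449 to 0.209), and the block gave 25 higher and 17 lower in total mRNA and exon usage in 9 genes, with alpha-Cat added (adjusted p = 0.042), a call for the second exon of alpha-Cat (−0.25, adjusted p = 0.146) and none for FBtr0088435-E7 of CG1407 (−0.26, adjusted p = 0.231). The classic dispersions were chosen after seeing the data. The filter left 52 of the 127 records untested, with group means of at most 3.35 RPM.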
